A study of Mus musculus with 8 samples.

Results

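Windows at the chromatin regulator genes Mta3, Arid1b, Myst3 and Kdm2b were followed through the differentiation of mouse embryonic stem cells after a transient knockdown of YAP, a co-activator of transcription that Hippo signalling keeps in check. A window belonged to a gene when its centre lay in the GENCODE M1 gene body or within 5 kb of it, which gave 23 windows of the 54235 listed in any comparison. The 4 genes had been selected on measured values: Mta3, Arid1b and Myst3 for a change on differentiation that was far lower in YAP KD than in CTR KD cells, and Kdm2b for a large gain in CTR KD cells. Their differentiation differences are therefore a description, and no test was made on them.

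DNA methylation was measured by bisulfite sequencing (BS-Seq) of captured genomic regions in E14Tg2a cells, a pluripotent line from the mouse embryo. The 4 groups were YAP KD T4, YAP KD T0, CTR KD T4 and CTR KD T0, with 2 samples each. YAP KD cells were transfected with siRNAs against YAP and CTR KD cells with a negative control siRNA. T0 stands for undifferentiated cells and T4 for aggregates (serum-free embryoid bodies) after 4 days of differentiation. Because the siRNA acted transiently, YAP KD T4 names cells with an earlier loss of YAP, not cells known to lack it at that time. The values are the authors' group comparisons, in percentage points of methylation, for overlapping windows of 250 bp. No value per sample, no level per group and no read depth was at hand, so the spread between replicates was not seen. The error printed after ± is a standard error (SE) derived from the authors' p-value, with 2 samples a group, and covers only what that p-value covers. Whether the authors' p-values and q-values cover the spread between experiments is not known and was not tested.

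The 4 proteins belong to different machines that act on chromatin. MTA3 is a subunit of the NuRD complex, which joins nucleosome remodelling to histone deacetylation. ARID1B is a large DNA-binding subunit of the BAF (SWI/SNF) remodelling complex, of which some forms are particular to stem cells or neurons. MYST3, now named KAT6A or MOZ, is a histone acetyltransferase of the MYST family. KDM2B is a histone demethylase whose CXXC domain binds unmethylated CpG and brings a variant Polycomb repressive complex 1 (PRC1) to CpG islands. Methylation of CpG in gene bodies and at promoters is reset when stem cells leave the pluripotent state. Methylation and not expression was measured here, and a window inside a gene body need not act on that gene.

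On mm9 coordinates, Mta3 (ENSMUSG00000055817.9) lies on the plus strand of chromosome 17 from 84105503 to 84223055 and had 6 windows. Arid1b (ENSMUSG00000069729.6) lies on the plus strand of chromosome 17 from 4994332 to 5347656 and had 4 windows. Myst3 (ENSMUSG00000031540.7) lies on the plus strand of chromosome 8 from 23970007 to 24053731 and had 7 windows. Kdm2b (ENSMUSG00000029475.11) lies on the minus strand of chromosome 5 from 123320677 to 123465089 and had 6 windows. The genes are long and sparsely covered: the windows took up 0.882% of Mta3 with its flanks, 0.241% of Arid1b, 1.47% of Myst3 and 0.890% of Kdm2b. Because neighbouring windows overlap, the 23 windows formed 15 separate stretches, and 21 of them were listed in all 4 comparisons. Windows are numbered within each gene by position on the chromosome. In each of the 23 windows, every run of 31 bases occurred once in the genome.

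The next 4 sequences are the windows with the greatest difference between the YAP KD and the CTR KD change at each gene, and they carry the main contrasts. They are given 5′ to 3′ on the plus strand of mm9, with each CpG, the site that can be methylated, in capitals. For Myst3 only the coding part of the window is shown, which opens at the start codon. The Kdm2b window is coding sequence of a minus-strand gene and so reads as its complement.
Mta3 window 1 (intron, chr17:84167626-84167875): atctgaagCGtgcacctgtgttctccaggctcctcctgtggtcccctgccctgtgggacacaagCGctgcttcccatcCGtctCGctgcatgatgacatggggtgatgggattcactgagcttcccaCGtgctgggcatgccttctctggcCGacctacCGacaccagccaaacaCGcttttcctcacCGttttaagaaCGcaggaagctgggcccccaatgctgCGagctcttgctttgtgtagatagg
Arid1b window 4 (intron, chr17:5238876-5239125): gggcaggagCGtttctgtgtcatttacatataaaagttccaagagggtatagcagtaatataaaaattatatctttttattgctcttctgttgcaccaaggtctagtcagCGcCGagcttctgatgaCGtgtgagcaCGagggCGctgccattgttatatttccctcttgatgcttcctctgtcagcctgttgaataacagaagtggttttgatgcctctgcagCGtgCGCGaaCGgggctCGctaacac
Myst3 window 5, coding part (first coding exon, chr8:23972674-23972875): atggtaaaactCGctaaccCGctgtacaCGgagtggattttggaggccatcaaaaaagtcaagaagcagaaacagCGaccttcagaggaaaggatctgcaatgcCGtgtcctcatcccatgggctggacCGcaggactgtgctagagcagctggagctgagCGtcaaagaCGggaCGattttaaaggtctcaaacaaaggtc
Kdm2b window 2 (coding exon, chr5:123330376-123330625): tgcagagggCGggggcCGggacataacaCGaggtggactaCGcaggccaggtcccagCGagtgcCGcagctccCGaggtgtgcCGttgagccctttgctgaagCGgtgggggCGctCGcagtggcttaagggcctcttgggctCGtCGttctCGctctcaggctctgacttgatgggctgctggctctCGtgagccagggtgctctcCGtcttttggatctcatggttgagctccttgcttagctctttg
Mta3 window 1 and Arid1b window 4 each held 11 CpGs, and Kdm2b window 2 held 16.

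A pair of further windows is shown because each passed the threshold on differentiation in only one of the knockdowns. They were chosen after their values were seen.
Mta3 window 6 (intron, chr17:84208626-84208875): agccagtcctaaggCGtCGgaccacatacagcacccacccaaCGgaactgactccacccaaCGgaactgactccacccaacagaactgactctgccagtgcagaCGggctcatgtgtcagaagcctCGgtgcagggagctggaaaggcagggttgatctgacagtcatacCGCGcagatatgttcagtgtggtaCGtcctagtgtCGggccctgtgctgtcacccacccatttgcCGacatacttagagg
Myst3 window 7 (coding exon and flanking intron, chr8:24013501-24013750): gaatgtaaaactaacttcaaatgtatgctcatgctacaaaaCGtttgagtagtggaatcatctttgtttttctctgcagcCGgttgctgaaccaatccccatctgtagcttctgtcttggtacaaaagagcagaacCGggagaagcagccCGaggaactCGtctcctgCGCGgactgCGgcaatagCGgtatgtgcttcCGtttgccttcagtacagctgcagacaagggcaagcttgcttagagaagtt
Mta3 window 6 held 11 CpGs and Myst3 window 7 held 10.

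At each of the 7 windows called on differentiation the YAP KD change was lower than the CTR KD change, as a lower gain, a deeper loss or a change of the opposite sign. Elsewhere in the genes the changes were under 10 points, and at Mta3 windows 3 to 5 and Kdm2b window 4 the YAP KD change was the higher. A window was called a differentially methylated region (DMR) when the authors' q-value was at or below 0.05 and the difference exceeded 10 points. In YAP KD cells, T4 against T0, 2 of 22 member windows were called gains and 3 were called losses, against 0.505% and 3.35% of all 42770 windows. In CTR KD cells 5 of 22 were called gains and none was called a loss, against 0.958% and 2.21% of all 46579 windows. Since the genes were selected on these comparisons, nothing is read from the excess over those shares. By unadjusted methylKit p-values under 0.05, 7 of the 22 windows were higher at T4 and 5 lower in YAP KD cells, against 6.28% and 18.1% of all windows. In CTR KD cells these counts were 11 higher and 1 lower, against 8.46% and 14.7% of all windows. The 7 windows called in either knockdown lay in 6 separate stretches, all over 1 kb from the start of a protein-coding transcript.

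**Figure D1:**
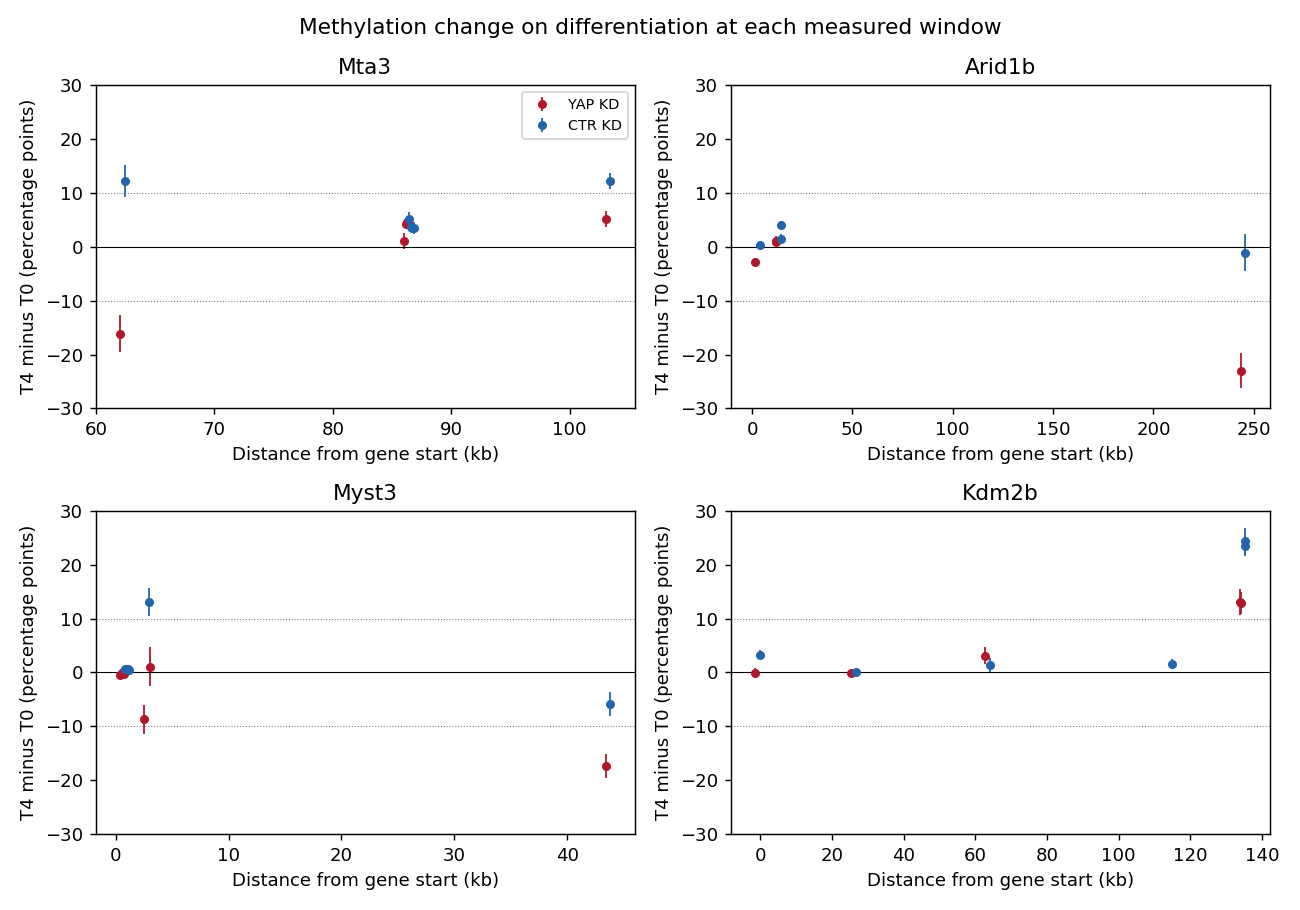
Methylation change on differentiation (T4 minus T0, percentage points) at each window against distance from the gene start in kb, in YAP KD cells (red) and CTR KD cells (blue), with bars of 1 derived SE, dotted lines at the 10-point minimum and the 2 colours set slightly apart. The YAP KD points lie far below the CTR KD points at Mta3 window 1, Arid1b window 4 and Myst3 windows 5 and 7, and the windows within 1 kb of a protein-coding transcript start lie within 3.27 points of 0.

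Mta3 moved in opposite directions in the 2 knockdowns at 1 intronic window. Window 1, which lies 62248 bp from the gene start, changed by -16.1 ± 3.36 points in YAP KD cells (q = 2.68e-05) and by 12.1 ± 2.98 points in CTR KD cells (q = 0.000617). The YAP KD change minus the CTR KD change was -28.2 ± 4.49 points, the greatest such difference at the 4 genes. Relative to CTR KD T0, its methylation stood at -5.73 points in YAP KD T4, 10.4 in YAP KD T0 and 12.1 in CTR KD T4. CTR KD T4 and YAP KD T0 thus differed by less than their SE at this window, with YAP KD T4 far below both.

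At the other Mta3 windows the changes were above 0 in both knockdowns. Window 6, also intronic and 103248 bp from the start, was called a gain in CTR KD cells only: its change was 5.11 ± 1.51 points in YAP KD cells (q = 0.00570) and 12.2 ± 1.496 points in CTR KD cells (q = 2.35e-14). YAP KD minus CTR KD change was -7.13 ± 2.13 points there. The overlapping windows 3 to 5, over a coding exon, changed by 4.25 to 4.58 points in YAP KD and by 3.44 to 3.57 points in CTR KD cells. These changes had q-values from 9.74e-08 to 0.0124 over both knockdowns but stayed under the 10-point minimum, and they differed between knockdowns by less than 1.1 SE. Window 2, which overlaps them from the intron side, changed by 1.03 ± 1.46 points in YAP KD and 5.06 ± 1.46 points in CTR KD cells. No window of Mta3 lay within 1 kb of a protein-coding transcript start, so its promoter was not covered.

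Arid1b held the deepest loss, and CTR KD cells hardly changed at the same window. Window 4, intronic and 244669 bp from the gene start, changed by -23.0 ± 3.30 points in YAP KD cells (q = 1.50e-10) and by -1.09 ± 3.44 points in CTR KD cells (q = 0.735). YAP KD minus CTR KD change was -21.9 ± 4.77 points. With CTR KD T0 at 0, YAP KD T4 stood at -12.8 points, YAP KD T0 at 10.2 and CTR KD T4 at -1.09. The CTR KD estimate carries an SE of 3.44 points, so a change of a few points in these cells could not be told from 0.

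The other 3 Arid1b windows lie in introns near the 5′ end and changed little. Window 1, 705 bp from a protein-coding transcript start, changed by -2.89 ± 0.662 points in YAP KD cells (q = 0.000160) and by 0.374 ± 0.601 points in CTR KD cells. Window 3 changed by 0.782 ± 0.729 points in YAP KD and 4.05 ± 0.801 points in CTR KD cells (q = 8.91e-06). Window 2, which overlaps it, changed by 0.999 and 1.38 points in YAP KD and CTR KD cells. None of these reached the 10-point minimum, and at each of the 3 the YAP KD change was the lower. At window 2 the difference of changes was -0.386 ± 1.36 points, less than its SE.

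Myst3 showed a gain called only in CTR KD cells at its first coding exon and a loss called only in YAP KD cells deeper in the gene. Window 5 covers 202 coding bases and 48 bases of UTR and lies 2744 bp from the gene start. It changed by -8.69 ± 2.67 points in YAP KD cells (q = 0.00846) and by 13.0 ± 2.60 points in CTR KD cells (q = 1.19e-05). The YAP KD value fell just short of the 10-point minimum, and the difference between the changes was -21.7 ± 3.73 points. Relative to CTR KD T0, YAP KD T4 stood at -2.46 points, YAP KD T0 at 6.23 and CTR KD T4 at 13.0.

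Window 7, over 109 bases of a coding exon 43619 bp from the start, changed by -17.4 ± 2.24 points in YAP KD cells (q = 5.41e-13). Its change in CTR KD cells had the same sign, -5.86 ± 2.26 points, and just missed the q threshold (q = 0.0529). The difference of changes was -11.5 ± 3.18 points. Here the estimates of the knockdowns differed in depth and not in direction, though the CTR KD loss was not called.

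At the Myst3 start nothing moved beyond about 1 point. Windows 1 to 4, intronic and 619 to 994 bp from the gene start, overlap each other and changed by -0.439 to 0.136 points in YAP KD and by 0.509 to 0.702 points in CTR KD cells. Their SE, 0.291 to 0.482 points, were far smaller than those of windows 5 and 7. Window 6 was listed for the YAP KD change, 1.05 ± 3.61 points, and not for the CTR KD change. Its YAP KD minus CTR KD difference at T4 was 1.44 ± 3.39 points (q = 0.869).

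Kdm2b gained methylation in both knockdowns within 1 coding exon, and the gain there was lower in YAP KD cells. The direct comparison of the knockdowns at T4 was not called at that exon. Windows 1 and 2 overlap within 1 coding exon, 134713 and 134588 bp from the gene start and toward the 3′ end. Window 2 changed by 13.1 ± 2.41 points in YAP KD cells (q = 1.10e-06) and by 24.3 ± 2.39 points in CTR KD cells (q = 4.78e-22). Window 1 changed by 12.9 ± 2.06 points in YAP KD and 23.5 ± 1.964 points in CTR KD cells. The differences of changes, -11.2 ± 3.39 points at window 2 and -10.6 ± 2.85 points at window 1, come from shared CpGs and count as 1 observation. Against CTR KD T0, window 2 stood at 15.4 points in YAP KD T4, 2.24 in YAP KD T0 and 24.3 in CTR KD T4.

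The other Kdm2b windows stayed under the 10-point minimum. Window 5, whose centre is 18 bp from the start of a protein-coding transcript that begins inside the gene, 25963 bp from the gene start, changed by -0.146 ± 0.158 points in YAP KD and by 0.111 ± 0.269 points in CTR KD cells. Window 4, over a noncoding exon, changed by 3.14 ± 1.52 points in YAP KD and 1.37 ± 1.33 points in CTR KD cells. Window 3, in an intron, was listed for the CTR KD change, 1.52 ± 0.957 points, and not for the YAP KD change. Its YAP KD minus CTR KD difference at T4 was -0.896 ± 1.08 points (q = 0.776). Window 6 lies 787 bp upstream of Kdm2b and inside the neighbouring gene Orai1, which encodes a calcium channel subunit, and it is the only member outside the gene bodies. It changed by -0.0135 ± 0.806 points in YAP KD and by 3.27 ± 0.830 points in CTR KD cells (q = 0.000975). The nearest window left out lay 14162 bp beyond Kdm2b.

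**Figure D2:**
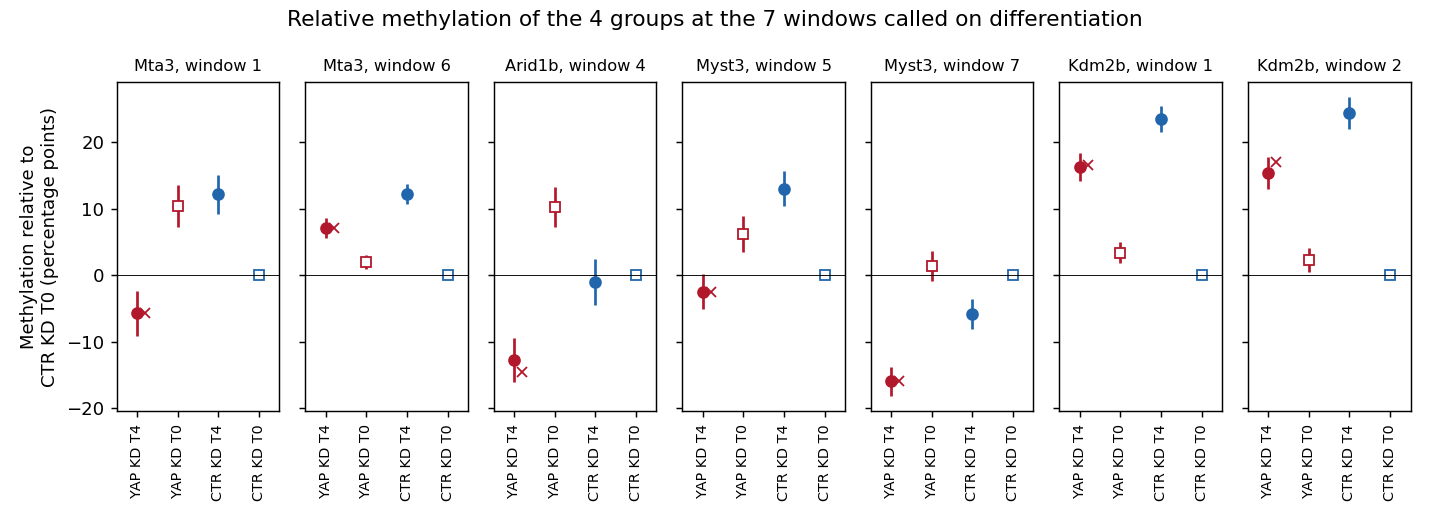
Methylation of YAP KD T4, YAP KD T0 and CTR KD T4 relative to CTR KD T0 (set to 0, percentage points) at the 7 windows called on differentiation. Bars are 1 derived SE of the deposited difference that leads to the point (for YAP KD T4, the YAP KD change alone). Crosses give YAP KD T4 reached through CTR KD T4. YAP KD T4 lies below CTR KD T4 and YAP KD T0 above CTR KD T0 in all 7 panels. The genes were selected on these changes, the Kdm2b windows share CpGs, and no T0 difference was called.

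The direct comparison of the knockdowns at T4 used the same libraries, so its values are tied to the differences above and are no separate evidence. At T4, 4 of 23 windows were called lower in YAP KD cells and none higher, against 0.292% and 0.028% of all 42803 windows. By unadjusted methylKit p-values under 0.05, 12 of the 23 were lower in YAP KD cells and 0 higher, against 7.69% and 3.55% of all windows. YAP KD minus CTR KD at T4 was -17.9 ± 3.22 points at Mta3 window 1 (q = 2.93e-05), and -13.4 ± 3.73 points at Arid1b window 4 (q = 0.0298). At Myst3 it was -15.4 ± 2.60 points at window 5 (q = 4.40e-06) and -10.1 ± 2.20 points at window 7 (q = 0.00141). Kdm2b was not called at T4: the difference was -6.89 ± 2.42 points at window 1 (q = 0.144) and -7.27 ± 2.90 points at window 2 (q = 0.233). Mta3 window 6 was not called either, at -5.15 ± 1.89 points (q = 0.172). These are values that missed the threshold and do not show equal methylation.

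At T0, before differentiation, none of 21 windows was called in either direction, against 0.0676% higher and 0.019% lower among all 47315 windows. By the unadjusted p-values of methylKit, as the authors deposited them, 5 of the 21 were under 0.05 and higher in YAP KD cells and 0 were lower, against 6.17% and 3.84% of all windows. The genes were selected on changes that use these same T0 libraries, so nothing is read from these counts against those shares. The 2 widest T0 differences were 10.4 ± 3.13 points at Mta3 window 1 (q = 0.108) and 10.2 ± 2.997 points at Arid1b window 4 (q = 0.0927), both higher in YAP KD cells. They were followed by Myst3 window 5, with 6.23 ± 2.68 points (q = 0.353).

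The difference of changes is the T4 knockdown difference minus the T0 knockdown difference, so these T0 values enter it. Taken through the knockdown comparisons, the T0 part made up 36.7% of it at Mta3 window 1, 43.2% at Arid1b window 4, 28.7% at Myst3 window 5, 12.5% at Myst3 window 7, 23.6% at Kdm2b window 2 and 27.8% at Mta3 window 6. By this route the difference of changes was -23.6 points at Arid1b window 4 and -9.52 points at Kdm2b window 2. Between the routes, the 21 windows differed by at most 1.75 points.

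**Figure D3:**
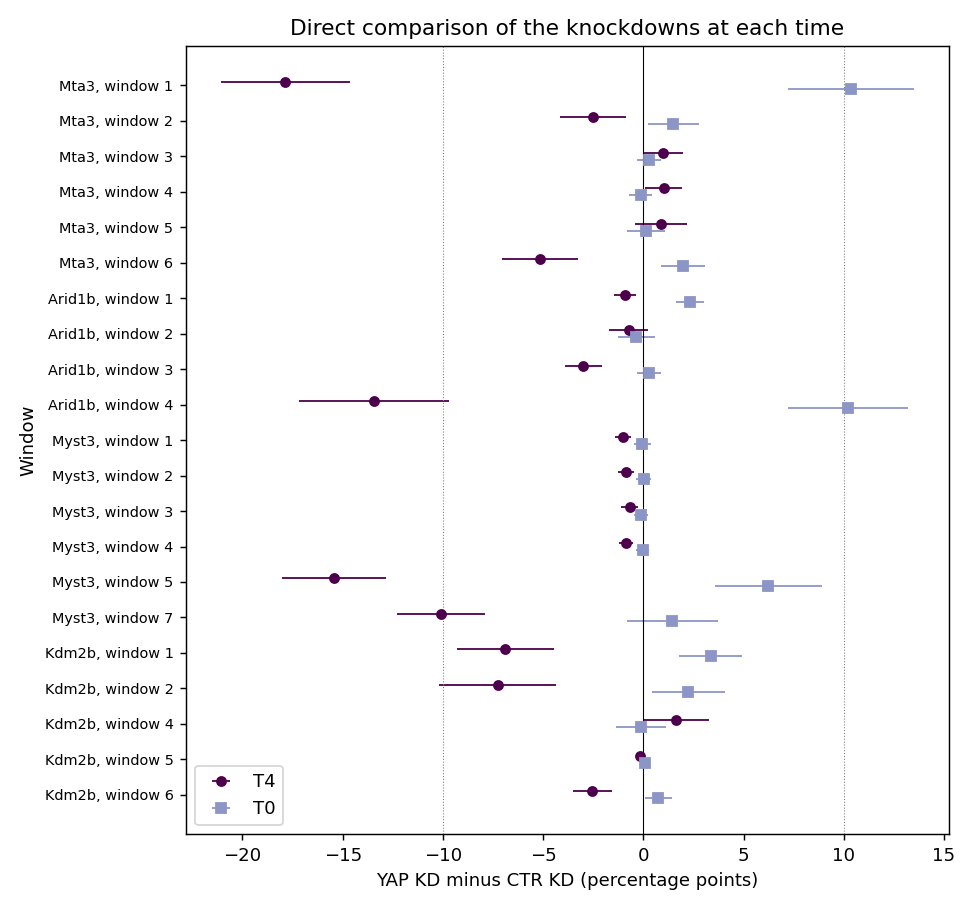
YAP KD minus CTR KD methylation (percentage points) at T4 (dark circles) and T0 (light squares) for the 21 windows in all 4 comparisons, with bars of 1 derived SE and dotted lines at the 10-point minimum. The 4 windows called at T4 lie between -17.9 and -10.1 points, while the T0 values of the same windows lie between 1.44 and 10.4 points.

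Over the members as a whole, called or not, the YAP KD change was the lower at 17 of 21 windows, with a median difference of changes of -3.27 points. Over all 38597 windows in both differentiation comparisons it was lower at 56.8%, with a median of -0.154 points. The genes were selected on these changes and neighbouring windows overlap, so nothing is read from this or the following contrasts with all windows. The median change of the members was 0.459 points in YAP KD and 2.40 points in CTR KD cells, against -0.168 and -0.0725 points over all windows. In CTR KD cells 2 of 22 member windows had a value below 0, against 54.0% of all windows. At T4 the members had a median knockdown difference of -0.932 points, with 18 of 23 below 0, against -0.101 points and 56.0% below 0 over all windows. At T0 that median was 0.279 points, against 0.0506 points over all windows. Members were also measured less precisely, with a median SE of 1.08 points for the YAP KD change and 0.942 points for the CTR KD change, against 0.593 and 0.586 points over all windows. The part of this in the spread of the members' values was not tested.

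**Figure D4:**
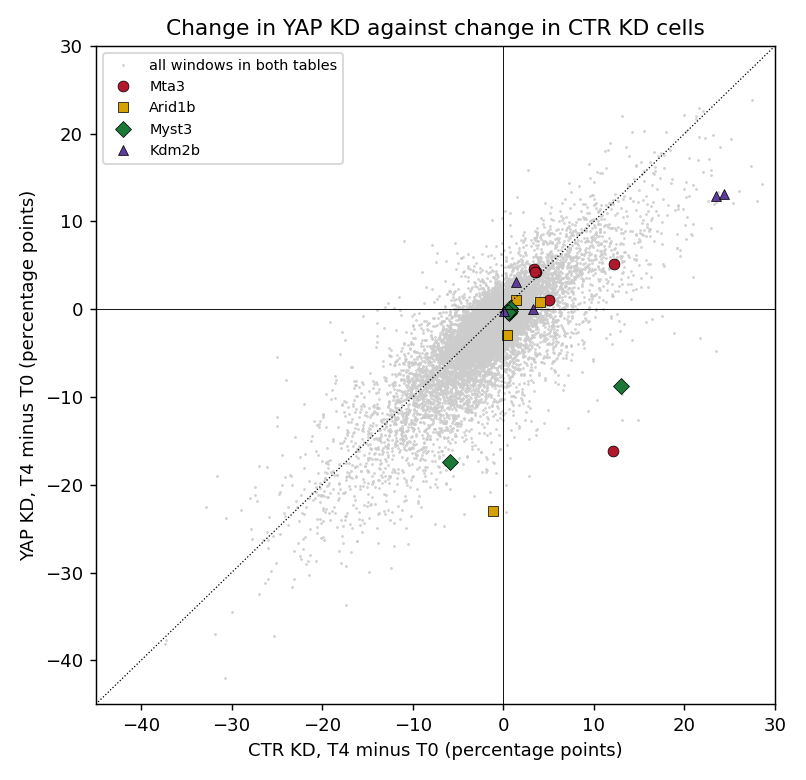
Change on differentiation (T4 minus T0, percentage points) in YAP KD cells against that in CTR KD cells, for all windows in both comparisons (grey) and the windows of Mta3, Arid1b, Myst3 and Kdm2b (coloured symbols); the dotted diagonal marks equal change. Of the 21 members plotted, 17 lie below the diagonal, and 8 lie where CTR KD is above 0 and YAP KD below it; of these, Mta3 window 1 and Myst3 window 5 exceed 8 points in both directions.

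The background shares differed with distance from a start site. Among windows over 1 kb from a protein-coding transcript start, 1.36% were called gains and 7.96% losses in YAP KD cells, and 2.63% and 5.27% in CTR KD cells. Within 1 kb these shares were 0.0738% and 1.02% in YAP KD cells, and 0.128% and 0.697% in CTR KD cells. The members had 13 to 14 windows of the far class in each comparison, among them every called window, and 8 to 9 of the near class, none of them called. At T4, 0.785% of the far windows were called lower in YAP KD cells.

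The called windows of Mta3, Arid1b and Myst3 held 10 or 11 CpGs, and those of Kdm2b 16 and 17. The 7 member windows called on differentiation held 10 to 17 CpGs with a median of 11, against a median of 13.5 in the other 16 members. All windows had a median of 16 CpGs, and the 2334 windows called in either differentiation comparison had a median of 11. The core motif of the TEAD factors, through which YAP binds DNA (CATTCC or its reverse complement GGAATG), was in none of the 23 windows, against 9.99% of all windows. The E-box CACGTG was in 8 of 23 windows, but overlap reduced these to 6 distinct sites, 1 of them in Mta3 window 1, against 7.94% of all windows. Such matches describe letters in a window only.

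The other genes of the same machines were counted from lists of the NuRD, BAF, MYST and PRC1 complexes. Of all measured protein-coding genes, 1.34% had a gain and 5.63% a loss in YAP KD cells, and 2.53% a gain and 4.14% a loss in CTR KD cells. Besides Mta3, 10 NuRD genes were measured, none with a DMR in YAP KD cells. Chd5, a chromodomain remodeller, had both a gain of 12.0 ± 1.82 points in its flank, where YAP KD cells changed by 9.24 ± 1.93 points, and a loss of -19.4 ± 3.40 points in a coding exon in CTR KD cells. The coding-exon window was not listed for the YAP KD change. At T4 its YAP KD minus CTR KD difference was -5.56 ± 2.96 points.

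Among 26 other BAF genes, 1 had a gain and 1 a loss in YAP KD cells, and 1 a gain and 2 a loss in CTR KD cells. Arid2, which encodes the ARID subunit of the related PBAF complex, lost methylation in a coding exon, by -25.0 ± 3.28 points in YAP KD and -10.7 ± 3.05 points in CTR KD cells. Unlike at Arid1b window 4, its loss was called in both. Bcl7a, a small BAF subunit, gained 16.2 ± 2.18 points in YAP KD and 16.7 ± 2.25 points in CTR KD cells. Bcl11b, a zinc-finger BAF subunit, changed by -8.05 points in YAP KD cells and was called lost in CTR KD cells, at -10.5 ± 2.05 points.

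None of 11 other measured MYST-complex genes had a DMR on differentiation. Of 20 other PRC1 genes, 1 had a gain in YAP KD cells, and 2 had a gain and 1 a loss in CTR KD cells. Usp7, a deubiquitinase found with PRC1, gained 15.0 ± 1.195 points in YAP KD and 17.3 ± 1.29 points in CTR KD cells within an intron. Ring1, a catalytic E3 ligase subunit, gained 13.7 ± 2.54 points in CTR KD cells and was not listed for YAP KD cells at that window. Cbx8, a chromodomain subunit, had a loss of -17.9 ± 3.42 points in its flank in CTR KD cells, at a window that was not listed for YAP KD cells either. No gene of the lists other than the members was called between the knockdowns at T4 or at T0, where 0.824% and 0.24% of all measured genes were called in either direction.

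Windows of other genes most like each member's lead window were found by the distance between their 4 differences in points, over the 4 comparisons. The window nearest to Mta3 window 1, at a distance of 6.07 points, was in Mmgt2, with -12.7 points in YAP KD and 14.8 points in CTR KD cells. An overlapping Mmgt2 window was also nearest to Myst3 window 5, at 5.95 points. For Arid1b window 4 it was a window of Pcdha11, at 5.12 points, with -21.3 points in YAP KD and -3.24 points in CTR KD cells. For Kdm2b window 2 it was a window of Tra2b, at 2.21 points, with 12.3 points in YAP KD and 23.5 points in CTR KD cells. The next in order were Drosha for Mta3, Add1 for Arid1b, 9630014M24Rik/Arhgap26 for Myst3 and Trim71 for Kdm2b, at 8.83, 7.05, 5.99 and 3.45 points. Kdm2b thus had the closest neighbours, and Mta3 the most distant ones.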

How the data were processed

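BS-Seq after SureSelectXT Methyl-Seq capture was run on E14Tg2a cells, 8 samples in 4 groups. Per the labels and the study's methods, the authors trimmed reads (Trim Galore), aligned them to mm9 (Bismark, Bowtie2), left out thinly covered positions and compared groups with methylKit over overlapping 250 bp windows. For each of 4 comparisons the deposited rows give each window with a p-value, a q-value, and how far its methylation differed in percentage points. These are the authors' own group comparisons and the only measurements analysed here, used as deposited. Total counts and depth are unknown.

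Differentiation differences were read as T4 minus T0, following how the study describes gain and loss. Given that sign, the knockdown differences were read as CTR KD subtracted from YAP KD, from the values: over 37980 windows in all 4 tables, the 2 routes to the difference of changes correlated at 0.989 and 93.4% closed within 0.5 points, against 22.2% with the knockdown signs turned. The SE is the absolute difference over the normal quantile of p. Its arithmetic was checked on simulated normal differences whose p-values were made from known SEs. That check cannot show whether the authors' p-values yield a valid SE.

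Windows were placed on GENCODE M1 with the NCBIM37 (mm9) genome, from which sequences and 31-mer copies were read. Of 84 listed genes, 83 were matched, some through synonyms in a RefSeq gene table of another build. The members, lists and rules were chosen with earlier results of these data known. The text names the members, their windows with the largest called differences and differences of changes, up to 3 called genes per list, comparison and direction, and the 2 windows most alike per member. Python 3.11.15, numpy 2.4.6, pandas 2.3.3, scipy 1.17.1 and matplotlib 3.10.9 were used. The 11 alternative settings changed the thresholds, the gene boundary, the treatment of overlapping windows, the route to the difference of changes and the SE.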

Additional observations from a re-analysis of the deposited data

How the results depend on the processing

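No paired analysis was possible because the tables hold no value per sample, and for the same reason no replicate could be left out. With no minimum difference the members had 6 gains and 5 losses in YAP KD cells and 11 gains in CTR KD cells. With a minimum of 20 points they had 0 gains and 1 loss in YAP KD cells, 2 gains in CTR KD cells and 0 windows lower in YAP KD at T4. Merging overlapping windows left 1 gain in YAP KD cells and kept 3 losses there. Thinning all windows to a set that shares no bases left 1 gain and 1 loss in YAP KD cells. In CTR KD cells it left 1 gain, and at T4 it left 1 window lower in YAP KD. The thinning also dropped called windows that overlap no other member, so its lower counts do not measure dependence on overlap. A q threshold of 0.01, the gene body alone, any overlap and windows in all 4 tables kept the main counts within 1.5 times. The differences of changes at the 4 genes kept their sign and size by the other route and over overlapping windows. With the SE doubled, the difference at Kdm2b came to -1.65 SE, against -3.30 SE, and the other 3 lay from -3.14 to -2.30 SE. Of the list counts, 8 moved under the 20-point minimum and 2 with the gene body alone, those of Chd5 (gain) and Cbx8, whose windows lie in the flanks. Unknown depth and the absence of values per sample limit every result.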
